A study of Mus musculus with 4 samples.

Results

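The Kupffer cell and macrophage markers described here are a list of 10 genes, *Clec4f*, *Vsig4*, *Marco*, *Timd4*, *Cd5l*, *Cd68*, *Csf1r*, *Lyz2*, *Gpnmb* and *Trem2*. Every probe that is no control spot and whose accession belongs to one of these genes was taken. This gave 11 probes of 9 genes, among 19752 named genes on the array, with 3 probes for *Csf1r* and 1 for each other gene. No accession was matched to *Cd68*, which codes for a lysosomal glycoprotein of macrophages, and it was not analysed here. 10 probes of 8 genes were bright enough to be tested, and the single probe of *Gpnmb* was not.

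The samples were whole livers of *Rap1*-deficient mice (*Rap1* -/-) and of wild-type mice. Both genotypes were 30 weeks old and on the same C57BL6/129SV background (90%:10%), and the labels name no further treatment. The knockout is constitutive and whole-body, made with a Cre that acts in the early embryo and was then bred out, so that macrophages and hepatocytes lack the gene alike. The labels give no sex, and the study describes females, at an age that differs from the labels. Total RNA was compared on 4 Agilent 2-colour arrays, each of which holds a *Rap1*-deficient and a wild-type liver. In replicates 1, 2 and 3, Cy5 marked RNA of the *Rap1*-deficient liver and Cy3 that of the wild-type liver. The fourth array exchanged the dyes. The labels give it the number 1, and it was taken as a repeat of replicate 1, so that n = 3 pairs. Its sign was turned, and every ratio below is *Rap1*-deficient over wild-type. RNA integrity numbers lay between 6.6 and 8.7, a range that the labels do not split by genotype.

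Kupffer cells are the resident macrophages of the liver. They sit in the sinusoids, where they clear bacteria, complement-coated particles and dying cells from portal blood, and they recycle the iron of aged red cells. Signaling through the receptor CSF1R keeps them alive, and CLEC4F, VSIG4, MARCO and TIMD4 are surface receptors by which they are commonly recognized in the mouse. In fatty liver, macrophages with high *Trem2* and *Gpnmb* appear beside them and handle lipid and cell debris. A change in these RNAs in bulk liver can come from fewer cells of the type or from less RNA per cell, and these cannot be told apart here.

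Rap1 is encoded by *Terf2ip*, and this gene was looked at first as a check of the labels. Probe A_52_P381806 gave -1.74, -1.92 and -1.91 as the log2 ratio in replicates 1, 2 and 3, and -1.68 in the dye swap. It was well above background in 0 of 4 *Rap1*-deficient channels and in 4 of 4 wild-type channels, and *Rap1*-deficient livers had an at least 3.33-fold lower signal (adjusted p = 0.00859, limma). The bound sets the dim genotype, array by array, at the weakest signal that still counted as above background. Probe A_55_P2094079 of the same gene was higher on all 4 arrays, by 0.96 ± 0.09 on the log2 scale (SD, n = 3 pairs, adjusted p = 0.0329, limma). The sources used here do not say whether either probe lies in the deleted part.

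3 properties of the arrays touch every value below. Across the 27513 tested probes, the ratios of replicates 1, 2 and 3 correlated with each other at r = 0.85, 0.64 and 0.78, but with the dye swap at r = -0.24, -0.29 and -0.27 after its sign had been turned. Probes on an array share its dyes and are not replicates. Of the 9488 probes called different between genotypes, 3437 (36.2%) had the same sign on the dye swap. Over 279 probes with repeated spots, the *Rap1*-deficient Cy5 channels of replicates 1, 2 and 3 differed by more than the spots on an array did (median SD of 0.155 between arrays and 0.117 between spots on the log2 scale). The wild-type Cy3 channels differed by less (0.0569 between arrays and 0.110 between spots). The measures are not alike, as spots on an array lie at different places, while the same spot was compared between arrays. The series describes 3 biological replicates for each genotype. Whether the wild-type channels hold 1 wild-type sample or 3 was not tested. The fits take 3 pairs. If the channels hold 1 sample, n = 3 counts *Rap1*-deficient livers and the tests leave out the spread among wild-type livers. All 12 hepatocyte markers were well above background in both genotypes.

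As a group, the macrophage markers did not move in 1 direction in *Rap1*-deficient livers. Of the 8 tested genes, *Lyz2* was called higher, *Vsig4* was called lower and 6 were not called at a false discovery rate (FDR) under 0.15, the threshold of the study (limma over 3 pairs, adjusted over all tested probes). Over all tested probes 20.8% were called higher and 13.7% lower, so that 1 of 8 in each direction is no larger a share than that of the array as a whole. Counted by probe, 3 of 10 were called higher, namely *Lyz2* and a pair of *Csf1r* probes, and 1 of 10 lower. *Csf1r* does not count among the called genes because its probe with the highest mean intensity stands for it.

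None of these gene calls held in a fit with a dye term. With a term for dye orientation over the 4 arrays, limma called 0 of 8 genes higher and 0 lower, with 0 and 0 at an unadjusted p under 0.05, against 4.61% of all tested probes called higher and 2.09% called lower. That fit takes the 4 arrays as independent, although 2 of them hold the same liver, and it weighs replicate 1 above the others, so that differences between that liver and the other 2 cannot be told apart from a dye effect in it. No member probe was above 0 on all 4 arrays (0 of 10, against 10.6% of tested probes) and none was below 0 on all 4 (0 of 10, against 10.9%). The median log2 ratio of the 8 genes was 0.28 over pairs, against 0.03 over all tested probes, and by array it was -0.71, -0.0022 and 1.06 for replicates 1, 2 and 3 and -0.21 for the dye swap. What the markers shared was an order among the arrays of replicates 1, 2 and 3, without the dye swap. In 9 of the 10 tested probes, the ratio of replicates 1 to 3 was lowest on replicate 1 and highest on replicate 3, an order found in 22.3% of all tested probes. Of these 9, *Trem2* lost the order once replicate 1 was averaged with its dye swap (-0.37, against -0.45 on replicate 2).

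**Figure D1:**
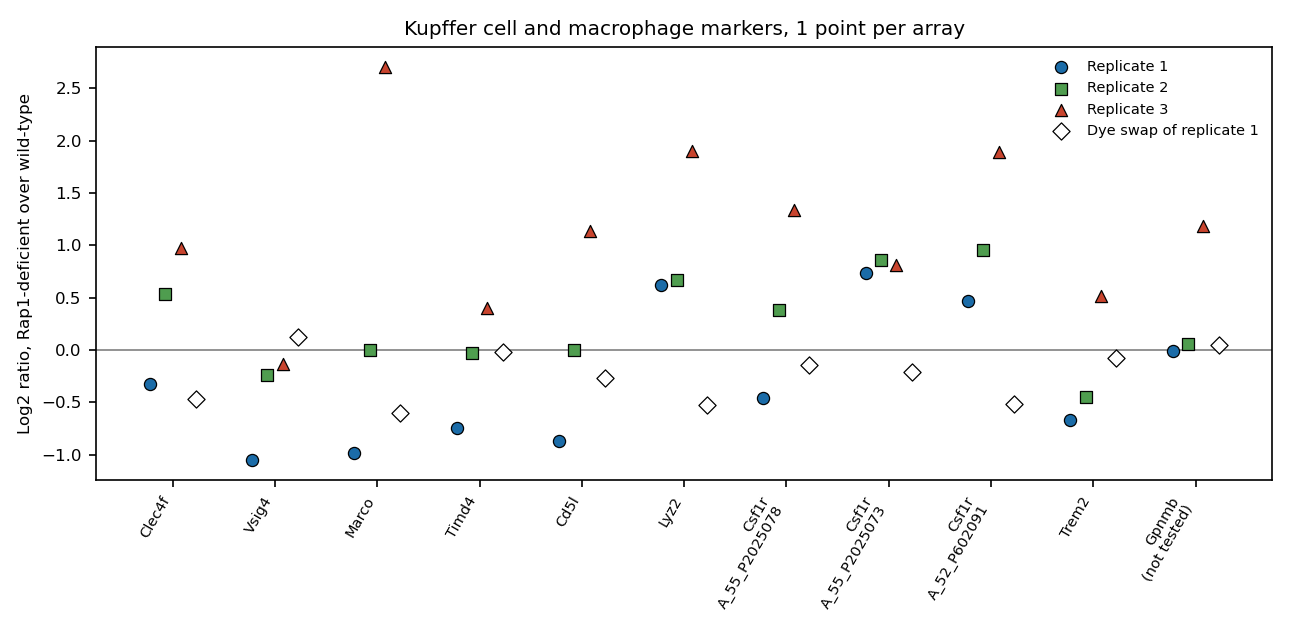
Log2 ratio of *Rap1*-deficient over wild-type for each probe of the macrophage markers (vertical axis), with 1 point for each array. Replicate 3 reaches 2.71 for *Marco* and 1.90 for *Lyz2*, while on replicate 1 *Vsig4*, *Marco*, *Cd5l* and *Timd4* lie between -0.75 and -1.05, and the dye swap of replicate 1 lies below 0 in 9 of the 10 tested probes.

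*Clec4f*, a C-type lectin that in mouse liver is largely restricted to Kupffer cells, had normalized log2 intensities of 11.43, 12.26 and 12.65 in the *Rap1*-deficient livers of replicates 1, 2 and 3 and 11.71 on the dye swap, against 11.75, 11.73, 11.68 and 12.18 in the wild-type livers in the same order. The *Rap1*-deficient liver was the lower one of its pair on both arrays of replicate 1 and the higher one on replicates 2 and 3, and the genotypes overlapped. The log2 ratios were -0.33, 0.53, 0.97 and, on the dye swap, -0.46. Their mean over pairs was 0.37 ± 0.70 (SD, n = 3, adjusted p = 0.352, limma). Without replicate 1, the mean of the remaining 2 pairs was 0.75 and passed the test (adjusted p = 0.0252, limma). Here and below, leaving out replicate 1 also removes its dye swap, so that Cy5 marks the *Rap1*-deficient liver on both remaining arrays. The mean was 0.29 without replicate 2 (adjusted p = 0.713, limma) and 0.07 without replicate 3 (adjusted p = 0.888, limma).

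*Vsig4* codes for the complement receptor CRIg, which captures particles coated with C3 fragments. Its normalized log2 intensities were 12.03, 12.80 and 12.82 in *Rap1*-deficient livers and 12.65 on the dye swap, against 13.08, 13.03, 12.95 and 12.53 in wild-type livers. The *Rap1*-deficient channel was the lower one on replicates 1, 2 and 3, with log2 ratios of -1.05, -0.24 and -0.14. On the dye swap the sign was opposite, at 0.13, and the genotypes overlapped. Over pairs *Vsig4* fell by 0.28 ± 0.17 on the log2 scale (SD, n = 3, adjusted p = 0.118, limma), or 1.21-fold. The call was lost with the dye term (adjusted p = 0.679) and without replicate 1, 2 or 3 (adjusted p = 0.209, 0.422 and 0.209). It was also lost with median centring in place of loess (-0.11, adjusted p = 0.669), with the authors' processed signals (adjusted p = 0.167) and with the dye swap as a replicate of its own (adjusted p = 0.357).

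*Timd4*, a receptor for phosphatidylserine on dying cells that marks long-lived Kupffer cells, had a mean log2 ratio close to 0. The *Rap1*-deficient livers had normalized log2 intensities of 7.53, 8.21 and 8.58 and 7.95 on the dye swap, against 8.27, 8.24, 8.17 and 7.97 in wild-type livers. Again the *Rap1*-deficient liver of replicate 1 was the lowest channel and that of replicate 3 the highest, on either side of the wild-type values. The log2 ratios of -0.75, -0.03, 0.40 and -0.02 on the dye swap averaged -0.0029 ± 0.39 over pairs (SD, n = 3, adjusted p = 0.992, limma), with a standard error of 0.16.

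*Marco* had the widest range of the markers. It codes for a scavenger receptor that binds unopsonized bacteria. Its normalized log2 intensities were 10.56, 11.44 and 14.03 in *Rap1*-deficient livers and 10.80 on the dye swap, against 11.55, 11.44, 11.32 and 11.39 in wild-type livers. The *Rap1*-deficient liver of replicate 3 lay far above every other channel, that of replicate 2 at the wild-type level, and that of replicate 1 below it with either dye. The log2 ratios were -0.98, -0.00072 and 2.71, and -0.60 on the dye swap. The mean of 0.64 ± 1.83 (SD, n = 3, adjusted p = 0.517, limma) was smaller than its spread, and without replicate 3 it was -0.40 (adjusted p = 0.325).

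*Cd5l* codes for a secreted scavenger protein, also called AIM, that macrophages release and that acts on lipid metabolism and survival. Its values followed the same order, with 12.81, 13.61 and 14.72 in *Rap1*-deficient livers and 13.35 on the dye swap, against 13.67, 13.61, 13.58 and 13.62 in wild-type livers. The log2 ratios were -0.86, -0.0036, 1.14 and -0.27 on the dye swap, so that replicate 2 stood at the wild-type level and the other pairs on opposite sides of it. Over pairs the mean was 0.19 ± 0.87 (SD, n = 3, adjusted p = 0.696, limma).

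Because these markers varied in the same order, promoters of 9 listed genes were searched for letters bound by factors of the macrophage lineage. The search covered the 250 bases before the gene start (RefSeq, mouse assembly GRCm38.p6). *Csf1r* was not among the 9, which include *Cd68*, without a matched probe, and *Gpnmb*, which was not tested. How the RNA of *Cd68* varied is therefore not known. The core of the PU.1 site, GAGGAA, was present on either strand in 5 of 9, against 23.3% of 32851 promoter windows of the same length. *Marco* held it 146 bases and *Cd5l* 66 bases before the start, *Vsig4* held 2 matches, and *Trem2* and *Cd68* were the others. The AP-1 motif TGANTCA was found in 2 of 9 (*Trem2* and *Cd68*, against 6.75%) and the C/EBP motif TTGCNNAA in 1 of 9 (*Cd68*, against 9.56%). Matches to different motifs did not overlap. A match describes the letters only, and binding was not measured. Shown are the promoters of *Marco* and *Cd5l*, the markers that varied most among livers, and of *Vsig4*, which held the PU.1 core more than once, each read along the strand of its gene, with the PU.1 core or its reverse complement in capitals. They lie at chr1:120505025-120505274 (minus strand), chr3:87357631-87357880 (plus strand) and chrX:96293439-96293688 (minus strand).
Marco: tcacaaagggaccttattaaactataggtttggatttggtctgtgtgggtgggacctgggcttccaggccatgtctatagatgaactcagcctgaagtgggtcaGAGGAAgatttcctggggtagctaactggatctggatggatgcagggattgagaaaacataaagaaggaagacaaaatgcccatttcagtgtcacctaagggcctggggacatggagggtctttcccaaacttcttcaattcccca
Cd5l: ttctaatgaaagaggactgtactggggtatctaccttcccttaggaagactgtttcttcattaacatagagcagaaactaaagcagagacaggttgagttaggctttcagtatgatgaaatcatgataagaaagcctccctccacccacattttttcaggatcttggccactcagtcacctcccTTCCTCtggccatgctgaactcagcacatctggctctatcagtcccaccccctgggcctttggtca
Vsig4: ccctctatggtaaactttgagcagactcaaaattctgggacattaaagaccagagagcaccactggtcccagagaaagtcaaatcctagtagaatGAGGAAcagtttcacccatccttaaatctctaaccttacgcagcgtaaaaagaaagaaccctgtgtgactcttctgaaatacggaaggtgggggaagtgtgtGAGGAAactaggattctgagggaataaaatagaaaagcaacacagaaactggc

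*Csf1r*, the receptor for CSF1 and IL-34 on which macrophages depend, was measured by 3 probes that did not give the same picture. The probe with the highest mean intensity, A_55_P2025078, had normalized log2 intensities of 12.65, 13.46 and 14.31 in *Rap1*-deficient livers and 12.93 on the dye swap, against 13.10, 13.08, 12.98 and 13.07 in wild-type livers. It kept the order of the other markers, with log2 ratios of -0.45, 0.38, 1.34 and -0.14 on the dye swap. The mean was 0.47 ± 0.82 (SD, n = 3, adjusted p = 0.311, limma), and without replicate 1 it was 0.86 (adjusted p = 0.0616, limma). It was 0.52 without replicate 2 (adjusted p = 0.570) and 0.04 without replicate 3 (adjusted p = 0.921).

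Probe A_52_P602091 of *Csf1r* gave 8.27, 8.88 and 9.93 in *Rap1*-deficient livers and 8.45 on the dye swap, against 7.80, 7.92, 8.04 and 8.96 in wild-type livers. Its log2 ratios were positive on replicates 1, 2 and 3 (0.47, 0.96 and 1.89) and negative on the dye swap (-0.51). It was called higher, by 0.94 ± 0.96 (SD, n = 3, adjusted p = 0.124, limma), but not with the dye term (0.30, adjusted p = 0.604) or with the dye swap as a replicate of its own (adjusted p = 0.305). The call was also lost without replicate 2 (adjusted p = 0.425) or replicate 3 (0.47, adjusted p = 0.319). Median centring and testing without the filter on dim probes gave an adjusted p of 0.157 and 0.161.

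Probe A_55_P2025073 was the only tested member probe without the common order. The *Rap1*-deficient livers gave 9.37, 9.22 and 9.30 and 8.68 on the dye swap, against 8.64, 8.36, 8.48 and 8.89 in wild-type livers. Its log2 ratios of 0.73, 0.86 and 0.81 were close to each other, and the dye swap was again opposite, at -0.21. The call, at 0.64 ± 0.33 (SD, n = 3, adjusted p = 0.0507, limma), held narrowly with the dye term (0.29, adjusted p = 0.145), and was lost without replicate 2 (adjusted p = 0.323), without replicate 3 (adjusted p = 0.162) and with the dye swap as a replicate of its own (adjusted p = 0.238). Thus 2 of the 3 *Csf1r* probes were above wild-type wherever Cy5 marked the *Rap1*-deficient liver and below it on the array where Cy3 did.

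*Lyz2*, which codes for the lysozyme of macrophages, monocytes and neutrophils, behaved in the same way. Normalized log2 intensities were 8.21, 8.48 and 9.68 in *Rap1*-deficient livers and 7.77 on the dye swap, against 7.59, 7.81, 7.78 and 8.30 in wild-type livers. On replicates 1, 2 and 3 every *Rap1*-deficient channel was above its wild-type partner (log2 ratios of 0.62, 0.67 and 1.90), and on the dye swap it was below (-0.53). The mean of 0.87 ± 0.94 (SD, n = 3, adjusted p = 0.140, limma) is a 1.83-fold increase. It was not called with the dye term (0.27, adjusted p = 0.643), nor without replicate 2 (adjusted p = 0.407) or without replicate 3 (0.36, adjusted p = 0.310), while without replicate 1 it was 1.28 (adjusted p = 0.0419, limma). The adjusted p was 0.164 with median centring, 0.1503 with the processed signals, 0.185 without the filter on dim probes and 0.320 with the dye swap as a replicate of its own, so that the call was lost in each. *Lyz1* is a close relative in sequence, and how far the probe tells them apart was not tested.

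*Trem2* and *Gpnmb*, which mark lipid-associated macrophages, gave no call. *Trem2*, a receptor for lipids that signals through the adaptor TYROBP, had 6.95, 7.22 and 8.27 in *Rap1*-deficient livers and 7.36 on the dye swap, against 7.61, 7.67, 7.75 and 7.44 in wild-type livers. The *Rap1*-deficient liver of replicate 3 was the highest channel and that of replicate 1 the lowest. The log2 ratios of -0.66, -0.45, 0.51 and -0.07 on the dye swap averaged -0.10 ± 0.54 (SD, n = 3, adjusted p = 0.747, limma). *Gpnmb*, a glycoprotein of lysosomes and phagosomes, was well above background in 1 of 4 channels of each genotype and was not tested. Its log2 ratios were -0.01, 0.06 and 0.05 on replicates 1 and 2 and the dye swap, and 1.19 on replicate 3.

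**Figure D2:**
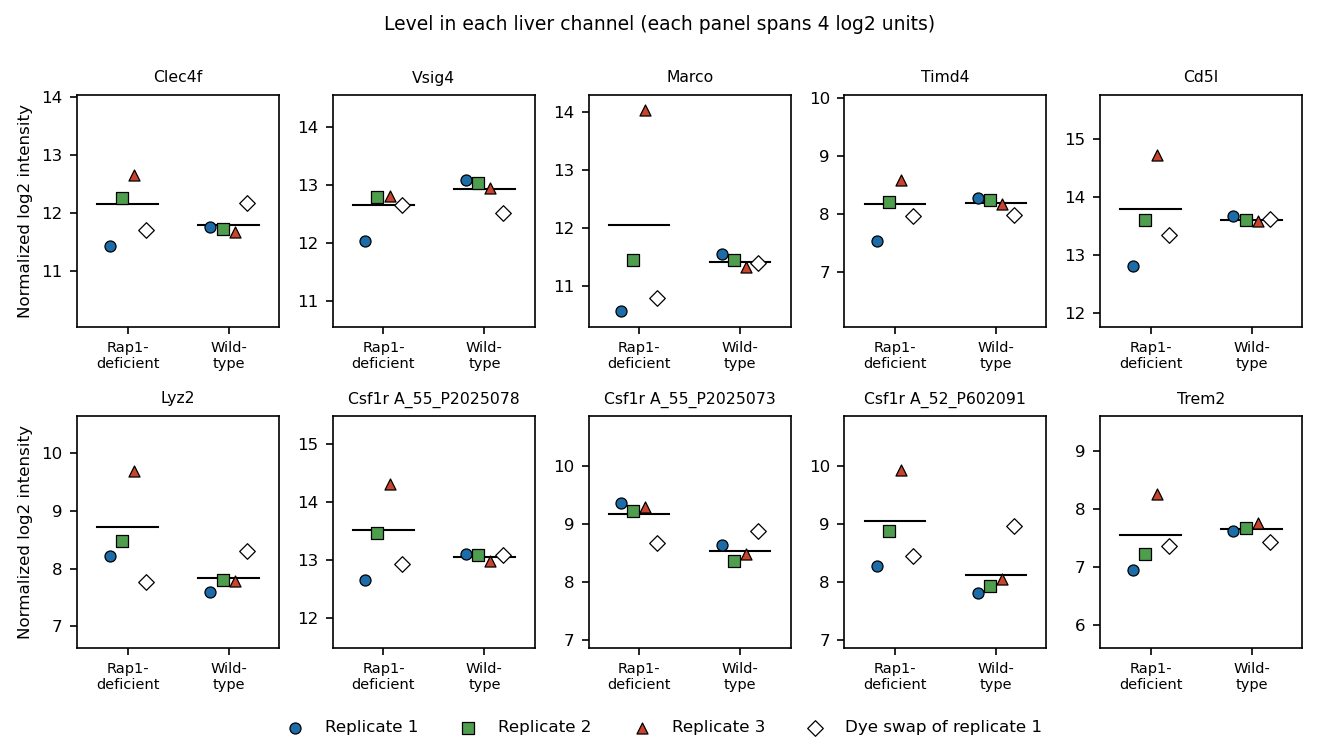
Normalized log2 intensity of the 10 tested marker probes in the *Rap1*-deficient (left) and wild-type (right) channel of each array, with 1 point for each array and a line at the mean of 3 replicates (replicate 1 averaged with its dye swap). The *Rap1*-deficient points (Cy5) spread more widely than the wild-type points (Cy3) in 9 of 10 panels over replicates 1 to 3. The same holds for 80.4% of all tested probes. *Marco* runs from 10.56 to 14.03 among *Rap1*-deficient livers.

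Apart from *Csf1r* probe A_55_P2025073, the tested marker probes also shared a wide spread among *Rap1*-deficient livers. Over replicates 1 to 3, the *Rap1*-deficient channels were all Cy5 and the wild-type channels all Cy3, so dye and genotype cannot be told apart here. In 9 of 10 probes the SD was larger among the *Rap1*-deficient than among the wild-type channels, as in 80.4% of all tested probes. For *Marco* the SD was 1.80 among *Rap1*-deficient and 0.11 among wild-type channels on the log2 scale. *Cd5l* followed with 0.96 against 0.047, and the median over all tested probes was 0.142 against 0.0628. Similar lists spread as widely. The median SD among *Rap1*-deficient channels was 0.740 over the 8 macrophage genes and 0.386 over other resident macrophage genes. It was 0.859 over genes shared by most myeloid cells, 0.856 over monocyte genes and 0.953 over neutrophil markers. The wild-type SD is a spread between channels. It is not taken as one between animals, as the number of wild-type samples was not tested.

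Between replicate 3 and replicate 1 the log2 ratio differed by 3.69 for *Marco*, a 12.9-fold difference, and by 2.00 for *Cd5l*, a 4.01-fold difference. It differed by 1.79 and 1.42 for a pair of *Csf1r* probes, by 1.30 for *Clec4f*, by 1.28 for *Lyz2*, by 1.18 for *Trem2*, by 1.15 for *Timd4* and by 0.91 for *Vsig4*. The third *Csf1r* probe, A_55_P2025073, differed by 0.08. Over all tested probes the median of this difference was -0.02 and the 95th percentile 0.66, so that 9 of the 10 marker probes lay beyond that percentile. On replicate 3 alone, 5 of 10 had a log2 ratio above 1, against 4.96% of all tested probes, and on the dye swap 9 of 10 were below 0, against 52% of all. Being below 0 on the dye swap was not particular to the markers. It held for 12 of 12 hepatocyte markers and 18 of 22 genes shared by most myeloid cells, and for 0 of 5 cholangiocyte markers. The median on the dye swap was -0.52 for the hepatocyte markers and -0.21 for the 8 macrophage genes.

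Other genes of Kupffer cells and resident macrophages had this order in 12 of 15 tested genes. Of these 15, *Maf* and *Mertk* were called higher, 1 was called lower and 12 did not pass (limma). Over all tested probes 20.8% were called higher and 13.7% lower. *Adgre1*, which codes for the F4/80 antigen, had log2 ratios of -0.44, 0.13, 1.38 and -0.31 on the dye swap (mean 0.38, adjusted p = 0.446). *Maf*, a transcription factor of macrophage identity, was positive on all 4 arrays (0.37, 0.46, 0.58 and 0.35 on the dye swap, mean 0.47, adjusted p = 0.0425) and was also called with the dye term (0.41, adjusted p = 0.096). *Mertk*, a receptor for engulfing dying cells, had 0.26, 0.34, 0.71 and -0.08 (mean 0.38, adjusted p = 0.119), and was not called with the dye term (0.18, adjusted p = 0.462). The median log2 ratio of the list was -0.30, 0.18 and 0.53 for replicates 1, 2 and 3, with -0.08 for the dye swap.

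Among genes shared by most myeloid cells, all 22 tested genes were lowest on replicate 1 and highest on replicate 3, and 17 of them had a log2 ratio above 1 on replicate 3. *Laptm5*, *Fcer1g*, *Lcp1*, *Pld4* and *Coro1a* were called higher, 0 were called lower and 17 did not pass (limma). These 5 of 22 are near the 20.8% called higher over all tested probes, of which 13.7% were called lower. With the dye term 0 were called, against 4.61% of all tested probes called higher and 2.09% called lower. *Laptm5*, a lysosomal membrane protein of blood cells, had log2 ratios of 0.22, 1.11, 2.10 and 0.15 on the dye swap (mean 1.13, adjusted p = 0.0885). *Fcer1g*, the common signaling chain of Fc receptors, had 0.15, 1.07, 2.23 and -0.22 (mean 1.09, adjusted p = 0.128). Genes that were not called kept the same shape, among them *Ctss* (-0.59, 0.31, 2.11 and -0.20), *Aif1* (-0.58, 0.04, 1.95 and -0.22) and *C1qb* (-0.26, 0.50, 1.54 and -0.10). The list median was -0.32, 0.32 and 1.40 for replicates 1, 2 and 3, with -0.10 for the dye swap.

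Both of these counts depended on which pair was left out. Of the 37 genes of the resident macrophage and myeloid lists together, 7 were called higher with all pairs, against 20.8% of all tested probes. Without replicate 1 this count was 22 of 37, together with 3 of the 8 markers (*Clec4f*, *Csf1r* and *Lyz2*) and 7266 of 27513 probes on the array. That fit also lacks the dye swap and holds 1 dye orientation only. Without the dye swap alone, the count was 12 of 37, against 8119 of 27513 probes on the array. Without replicate 2 and without replicate 3 it was 0 of 37 (limma, with 1 and 3 at an unadjusted p under 0.05). Over the whole array, just 1 of 27513 probes was called higher without replicate 2, and 1903 were without replicate 3.

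Among the ligands of CSF1R, *Csf1* had log2 ratios of -0.43, -0.23, 0.43 and -0.20 on the dye swap, and *Il34* had -0.55, -0.09, 0.77 and 0.26. Neither passed the test (adjusted p = 0.885 and 0.555, limma). *Tyrobp*, the adaptor that carries the TREM2 signal, had -0.89, 0.05, 1.27 and -0.39 (mean 0.23, adjusted p = 0.672). Downstream, the phospholipase *Plcg2* had -0.24, 0.30, 1.04 and 0.15 (adjusted p = 0.207) and the lipid phosphatase *Inpp5d* had -0.16, 0.33, 1.15 and -0.07 (adjusted p = 0.235). Only the sheddase *Adam17* was called among 16 tested genes, against 20.8% of all tested probes called higher and 13.7% called lower. *Adam17* fell by 0.54 on the log2 scale, with -0.60, -0.71, -0.57 and -0.07 on the dye swap (adjusted p = 0.0431, and 0.116 with the dye term, limma). Of the 16 genes, 14 were lowest on replicate 1 and highest on replicate 3.

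Lipid-associated macrophage and lysosome genes, which are also expressed outside macrophages, included 4 called higher (*Lipa*, *Cd9*, *Capg* and *Itgax*), 2 called lower (*Fabp5* and *Ctsl*) and 11 that did not pass. The shares over all tested probes were 20.8% called higher and 13.7% called lower. *Lipa*, the acid lipase of lysosomes, was positive on all 4 arrays (0.93, 0.70, 0.52 and 0.24 on the dye swap, mean 0.60, adjusted p = 0.0402, limma). *Fabp5*, a fatty acid binding protein that is also found in epithelia, was negative on all 4 arrays (-3.15, -1.32, -0.75 and -1.93, mean -1.53, adjusted p = 0.0492, limma). *Ctsl*, a lysosomal protease, had -0.52, -0.59, -0.51 and -0.05 (mean -0.46, adjusted p = 0.0483, limma). These 3 remained called with the dye term (adjusted p = 0.109, 0.133 and 0.140), and of the 3 only *Fabp5* was lowest on replicate 1 and highest on replicate 3. With that term 2 of 17 genes were called higher and 2 lower, against 4.61% and 2.09% of all tested probes. Beside *Lipa*, the gene called higher was *Fabp4*, with 0.48, -0.30, -0.02 and 1.53 on the dye swap (adjusted p = 0.0951 with the dye term and 0.552 over pairs, limma).

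Infiltrating monocyte genes were lowest on replicate 1 and highest on replicate 3 in 7 of 12 tested genes, against 22.3% of all tested probes. They were highest on replicate 3 in 10 of 12, against 34.8% of all tested probes. *S100a6* was called higher and *Itgam*, an integrin chain of monocytes and neutrophils, lower, and 10 did not pass (limma). Of all tested probes, 20.8% were called higher and 13.7% lower. *Itgam* had log2 ratios of -1.28, -0.51, -0.63 and -0.04 on the dye swap (mean -0.60, adjusted p = 0.0402). With the dye term neither *S100a6* (adjusted p = 0.282) nor *Itgam* (adjusted p = 0.264) was called. *Ly6c1* had 0.07, 0.32, 2.42 and -0.01 (adjusted p = 0.219). The list median was -0.15, -0.08 and 1.22 for replicates 1, 2 and 3, with 0.02 for the dye swap.

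Markers of other leukocytes moved with the macrophage markers on replicate 3. The median log2 ratio on that array was 1.35 over 6 neutrophil markers, 1.02 over 9 T and NK cell markers and 0.57 over 6 dendritic cell markers, against 1.06 over the 8 macrophage markers. It was 0.24 over 12 hepatocyte markers, -0.06 over 12 sinusoidal endothelial markers and 0.02 over 7 B and plasma cell markers. High values on replicate 3 were not limited to leukocyte lists, since 5 cholangiocyte markers had a median of 0.46, and among 12 stellate cell and fibroblast markers, with a median of 0.09, the collagen genes *Col1a2*, *Col1a1* and *Col3a1* had log2 ratios of 2.27, 1.85 and 1.37. The summed signal of the macrophage markers ranged between 22646 and 79208 over *Rap1*-deficient channels, against 34811 to 37668 over wild-type channels. That of the neutrophil markers ranged between 32764 and 58400 over *Rap1*-deficient channels, against 35119 to 39418 over wild-type channels. Most of this neutrophil sum came from *Csf3r*, with a mean log2 intensity of 15.1, against 10.8 for *S100a9*, the next brightest of the 6. The T cell gene *Cd3e* was above background in 4 of 4 channels of each genotype, *Cd3g* in 4 *Rap1*-deficient and 1 wild-type channels, and *Cd8a* in 1 and 0. *Nkg7* and *Gzma*, genes of cytotoxic lymphocytes, were above background in 4 of 4 channels of each genotype, and *Ncr1* of NK cells in 0 of either. The part of these cells in the values of the macrophage markers was not tested.

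**Figure D3:**
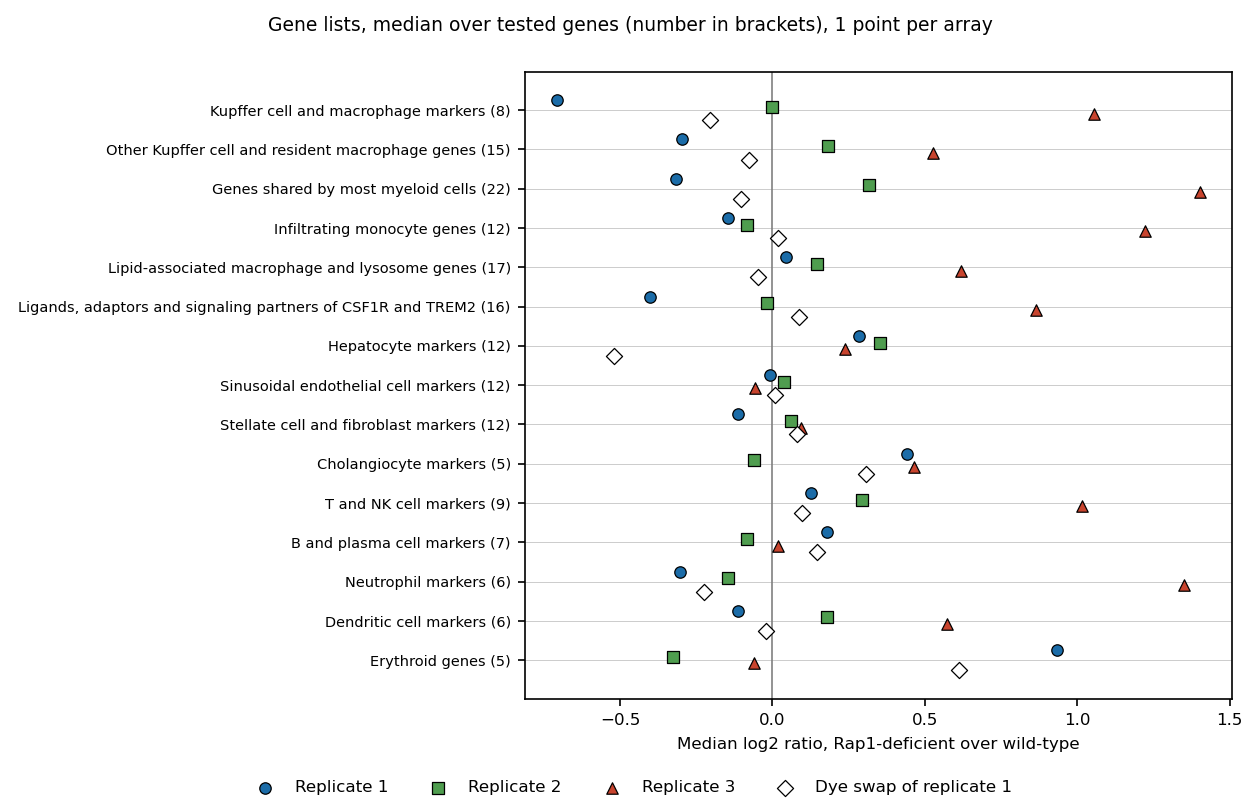
Median log2 ratio of *Rap1*-deficient over wild-type (horizontal axis) of the tested genes of each list (rows, number of genes in brackets), with 1 point for each array. On replicate 3 the macrophage and other leukocyte lists lie to the right, up to 1.40 for genes shared by most myeloid cells, with 0.46 for cholangiocyte markers, while hepatocyte, endothelial, stellate cell and B cell lists stay between -0.06 and 0.24.

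The member probe whose mean log2 ratio over the 4 arrays was farthest from 0 was *Csf1r* A_52_P602091, and the genes outside the lists with the nearest 4 log2 ratios, among 16531 candidates, were *H2-Q6*, *H2-Q2* and *H2-D1*. Their Euclidean distances over the 4 arrays were 0.209, 0.255 and 0.275. *H2-Q6* had log2 ratios of 0.64, 0.90, 1.85 and -0.41 on the dye swap. All 3 are class I genes of the major histocompatibility complex, a family of near-identical copies, so the naming of these probes is uncertain.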

How the data were processed

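RNA of 3 *Rap1*-deficient livers was set against wild-type liver RNA on 4 arrays, all on 1 slide and scanned once. The authors deposited each scan as median spot and background intensities of both dyes, made with Agilent Feature Extraction (10.7.3.1 in the headers, another version in the methods). The deposited scans also hold intensities processed by that software and the log10 ratio of Cy5 over Cy3. A value table of log2 ratios was deposited by the authors, with limma named in their processing notes. The direction of its columns was settled against the scans, and how its background was corrected and its ratios normalized is not stated in the sources used here.

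Background correction of the median intensities used normexp with an offset of 50, and loess was applied array by array (limma 3.58.1, R 4.3.3). Spots with an outlier flag were left out, which removed 5 probes, and repeated spots were averaged. Channel levels were also quantile-normalized between arrays on the mean intensity. Tests were limited to the 27513 of 55681 probes for which, in 1 genotype or both, a share of 0.5 or more of the spots was well above background on every array. limma (lmFit and eBayes) tested the mean log2 ratio of the 3 pairs against 0 (a pair is a *Rap1*-deficient liver and the wild-type channel beside it), with Benjamini-Hochberg adjustment over all tested probes. In the dye term, the 4 arrays were fitted with dye orientation as a covariate. The procedure was tested on simulated data. Each channel had 50.1% to 56.4% of its spots well above background and 0 saturated, and precision is limited by the number of arrays.

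Accessions were looked up in a RefSeq table, which named 26056 of 55681 probes, and a gene with several probes was represented by that with the highest mean intensity. All probes of the markers and of *Terf2ip*, *Adgre1*, up to 3 genes with the smallest p of each further list, and further resident macrophage and myeloid genes are named. *Cd9*, *Capg*, *Itgax*, *Fabp4*, *Csf1*, *Il34*, *Ncr1*, *Cd8a*, *Gzma*, the collagen genes and the genes named in the closing observations were chosen after their values were seen. The gene of the resident macrophage list that was called lower is not reported here by name. The markers, lists and tests were chosen with earlier results of these data known. Other normalizations, filters, treatments of the dye swap and sets of pairs were tried as alternatives.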

Additional observations from a re-analysis of the deposited data

Results flagged for a closer look

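The dye-swapped array of *Csf1r* probe A_55_P2025073 stood apart from the other arrays. Its log2 ratio of *Rap1*-deficient over wild-type was -0.212, against 0.73, 0.86 and 0.81 on replicates 1, 2 and 3, and the gap to the nearest array made up 0.883 of the whole range. Of 12 tested probes of the markers and *Terf2ip*, this was the 1 that stood apart so far, and chance alone gives about 1 in 20 groups of like arrays. The arrays here are not alike, since only the dye swap exchanged the dyes, so that rate cannot judge this value.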

How the results depend on the processing

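Of the macrophage markers, 1 gene was called higher and 1 lower. The count called higher was 0 with median centring, with the authors' processed signals, without a filter on dim probes, with the dye term, with the dye swap as a replicate of its own and at an FDR under 0.05, and 2 with the probe of smallest p for each gene. Leaving out a pair gave 0 to 3. The count called lower was 0 with median centring, processed signals, the dye term, the dye swap as its own replicate, an FDR under 0.05 and whichever pair was left out. Of the 37 other macrophage genes, 7 were called higher, against 20.8% of all tested probes. This count was 3 with median centring, 4 without a filter, 1 with the dye term, 0 with the dye swap as its own replicate, 12 without the dye swap, 1 at an FDR under 0.05, and 0 to 22 when a pair was left out. The count called lower, 1, was 0 with median centring, the dye term, the dye swap as its own replicate and an FDR under 0.05, 2 with the authors' value table and without the dye swap, and 0 to 1 when a pair was left out. With the dye swap as its own replicate, limma called 27 probes higher and 56 lower over the whole array. At an unadjusted p under 0.05 it had 0 and 0 of the 8 markers and 3 and 1 of the 37 other genes. The cause of these shifts was not tested. The *Terf2ip* probes kept their direction, with 0.91 to 1.01 and -1.92 to -1.81 when a pair was left out, and missed the threshold without replicate 2 (adjusted p = 0.267 and 0.186, limma). Over all probes, 60.3% of calls were higher, against 87.7% with median centring, 49.3% with processed signals and 45.3% with the value table, and median centring moved the median log2 ratio to 0.17, against 0.03. The order of the arrays of replicates 1 to 3, lowest on replicate 1 and highest on replicate 3, was found in 9 of 10 marker probes. Median centring gave 10, and processed signals and the value table gave 9 each, alternatives chosen after seeing the data. The larger spread among *Rap1*-deficient (Cy5) than among wild-type (Cy3) channels was found in 9 of 10 with processed signals too. Each ratio already sets the genotypes of 1 array against each other, so no replicate block could be added. Of 3 *Rap1*-deficient livers, 1 was measured in both dye orientations.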

Other observations

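Erythroid genes went the opposite way to the macrophage markers and were highest in replicate 1 with either dye. *Hba-a2*, an alpha globin gene with a near-identical copy, gave 1.33, -0.05 and 0.23 as the log2 ratio of *Rap1*-deficient over wild-type in replicates 1, 2 and 3, and 0.56 in the dye swap. *Alas2*, the erythroid enzyme that starts heme synthesis, had 1.03, 0.00, 0.09 and 0.61, and *Hbb-b2*, a beta globin gene, had 0.82, -0.69, -0.69 and 0.64. None of the 5 tested erythroid genes was called (limma, adjusted p = 0.232 for *Hba-a2*, 0.277 for *Alas2* and 0.633 for *Hbb-b2*).

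*Jchain*, the joining chain of secreted antibodies made by plasma cells, was higher on all 4 arrays, with 1.85, 0.29, 0.86 and 1.48 on the dye swap (mean 0.94, adjusted p = 0.0708, and 0.123 with the dye term, limma). The B cell adaptor *Blnk* was lower on all 4, with -0.83, -0.90, -0.29 and -0.75 (mean -0.66, adjusted p = 0.0484, and 0.0914 with the dye term, limma). In replicate 3, the cytotoxic lymphocyte genes *Ccl5* and *Gzma* reached log2 ratios of 3.52 and 3.14, against values between -0.21 and 0.51 on the other arrays, and neither was called (adjusted p = 0.202 and 0.297, limma). The neutrophil genes *S100a8* and *S100a9* had 1.83 and 1.78 on replicate 3 and lay between -1.01 and -0.41 on the other arrays (adjusted p = 0.780 and 0.879, limma).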
